A study of Mus musculus with 8 samples.

Results

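The cells described here are venous-type endothelial cells (EC) of the mouse heart that carry Fmo2 and Nr2f2, and they were chosen by a rule on their own counts. A cell had to show a unique molecular identifier (UMI, one captured RNA molecule) of Pecam1, Kdr or Cdh5, and at least 3 of the 7 markers Fmo2, Cysltr1, Ptgs1, Vcam1, Nr2f2, Vwf and Cpe. It also had to show fewer than 3 UMIs of Plvap and none of Ackr1, Cytl1, Mki67, Top2a, Ptprc, Rgs5 or Ccl21a. Of 31028 deposited cells, 28671 were left once copied barcodes were dropped, 27978 of these showed an EC gene, and 1575 were members, 327 from healthy and 1248 from infarcted hearts.

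All hearts came from adult Pdgfb-iCreERT2-R26R-Brainbow2.1 mice of 8 to 10 weeks, in which Pdgfb-driven Cre switches on a Confetti fluorophore after tamoxifen. Every mouse of both groups received 150 mg/kg tamoxifen once by intraperitoneal injection. The 4 MI mice had the left anterior descending coronary artery tied permanently 14 days later, the 4 Healthy mice had no operation, and ventricles were taken at 21 days after tamoxifen, which is 7 days after MI. CD31+ Confetti+ podoplanin- cells were sorted, a gate set for EC with past Pdgfb-driven recombination and against lymphatic EC, and each mouse gave 1 droplet library. The gate was not complete, since the table also held cells rich in pericyte or fibroblast RNA, which are counted below.

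Veins collect blood from capillaries, and their endothelium is where leukocytes most readily leave the circulation. Nr2f2 encodes COUP-TFII, the nuclear receptor that sets venous identity by restraining the Notch programme of arteries. Vwf encodes the clotting protein von Willebrand factor, Vcam1 an adhesion molecule for leukocytes, Ptgs1 the constitutive cyclo-oxygenase that starts prostanoid synthesis, Cysltr1 a receptor for cysteinyl leukotrienes, Cpe a carboxypeptidase of prohormones and Fmo2 a flavin monooxygenase. Plvap forms the diaphragms of fenestrated and injured endothelium. In the GRCm38 annotation of GENCODE vM21 the 6 genes that give the cells their name and markers lie at chr1:162874317-162898726 (Fmo2), chr7:70351944-70366735 (Nr2f2), chrX:106574346-106603679 (Cysltr1), chr2:36230426-36252272 (Ptgs1), chr6:125546774-125686679 (Vwf) and chr8:64592542-64693054 (Cpe).

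The 8 libraries held 2750 to 5109 cells and 6764977 to 27244947 UMIs, with every MI library deeper than every healthy one. Healthy 228 shared 2041 barcodes with Healthy 239, and Healthy 227 shared 316 with Healthy 228, whereas the other pairs shared 10 to 40. Of the genes seen in the cell with fewer genes of each shared barcode, a median of 98.7% and 99.6% were also seen in its partner in these pairs of mice, beside 39.0% to 58.4% in the other pairs. The copy had fewer UMIs in Healthy 228 than in Healthy 239 for 99.7% of the barcodes, and fewer in Healthy 227 than in Healthy 228 for 96.5%. These copies were dropped from Healthy 228 and Healthy 227, which removed 48 cells that met the rule, 36 from Healthy 228 and 12 from Healthy 227. The labels do not say which mouse the shared cells came from, and with them kept Healthy 228 had 94 members (2.88% of its EC) in place of 58 (3.63%). Nothing in the labels states whether the 8 mice differed in any further batch. In members Xist was at 0 CPM in Healthy 227 and MI 244, where the Y-linked gene Ddx3y stood at 107 and 81.7 CPM (UMIs of a gene per 1000000 UMIs of that set of cells in a mouse), so each group held 1 mouse with this pattern.

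The number of members differed between mice, and the groups also differed in depth. Members numbered 93, 58, 87 and 89 in Healthy 227, 228, 239 and 240, and 260, 406, 319 and 263 in MI 244, 250, 255 and 256. They made up 3.95%, 3.63%, 2.38% and 2.79% of the EC of the healthy mice and 5.80%, 8.04%, 7.75% and 7.45% of the EC of the MI mice, so the groups did not overlap (3.19% ± 0.727 against 7.26% ± 1.01, SD, n = 4 each). With every cell thinned to 1000 UMIs the same rule gave 1.06%, 1.28%, 0.931% and 1.03% in healthy mice and 1.08%, 1.66%, 2.24% and 2.34% in MI mice, where MI 244 fell among the healthy values. Thinning also took UMIs of Plvap and of the excluded genes, so cells outside these limits at full depth could enter. Cells that met the rule but for 3 or more Plvap UMIs numbered 126, 140, 218 and 66 in MI 244, 250, 255 and 256. When thinned they numbered 2, 7, 18 and 3. The part of such cells in the thinned shares was not tested. No test was made of these shares, since the rule reads counts that differ in depth between the groups.

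Members were deep cells. Their median UMI count was 4160, 4187, 3049 and 3183 in the healthy mice and 6029, 5152, 5088 and 4233 in the MI mice, so the 4 MI medians all exceeded the 4 healthy ones (exact two-sided permutation test, p = 0.0286, n = 4 each, the smallest p that this design allows). The other EC, which met no more than 2 markers and the same exclusions, had medians of 1814 to 2631 UMIs in healthy and 2986 to 3765 in MI mice. Only 365 cells met the rule after thinning and 235 of these were members at full depth, so membership of single cells depended on depth. The rest had enough markers at full depth but lay outside the limits on Plvap or the excluded genes. At full depth 3 healthy members and no MI member had fewer than 1000 UMIs. No doublet caller was run, and 111 members (7.05%) lay above the 95th percentile of UMIs among the EC of their mouse. These were 63 of the healthy members (19.3%) and 48 of the MI members (3.85%).

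**Figure D1:**
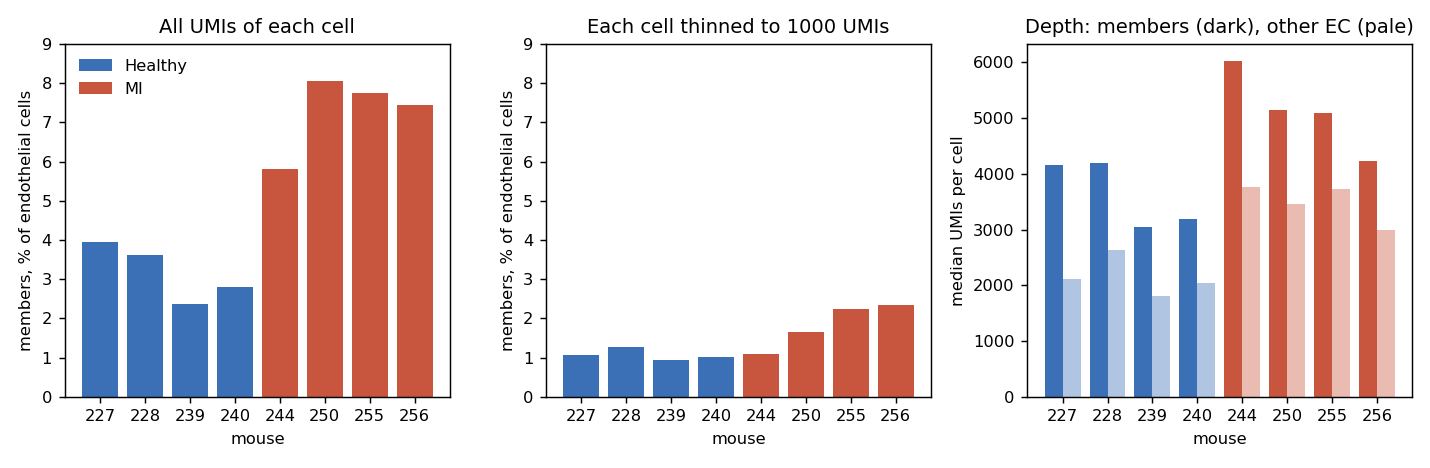
Bars give members as a percentage of EC in each mouse from all UMIs (left) and after each cell was thinned to 1000 UMIs (middle), and the median UMIs per cell of members and other EC (right), in Healthy (blue) and MI (red) mice. The MI bars stand above all healthy bars on the left, whereas MI 244 at 1.08% lies within the healthy range in the middle.

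The 7 markers chose the cells, so their levels are given as a description. Ptgs1 was seen in 65.7% of members, Vcam1 in 63.9%, Fmo2 in 62.4%, Cpe in 57.1%, Nr2f2 in 51.2%, Vwf in 51.2% and Cysltr1 in 38.5%, at a median depth of 4674 UMIs. In the other EC, at a median of 2660 UMIs, the shares were 7.33%, 8.44%, 10.7%, 8.03%, 3.75%, 7.00% and 2.08%. Thinned to 1000 UMIs, Fmo2 was seen in 23.9% of members and 4.67% of other EC, and Cysltr1 in 11.5% and 0.822%. As a check on free RNA, 645 cells with at least 5 UMIs of the pericyte gene Rgs5, at a median of 4336 UMIs, showed Fmo2 in 10.2%, Cysltr1 in 3.41% and Ptgs1 in 8.22%, but Nr2f2 in 43.1%. The Rgs5-rich cells were not required to lack EC genes, so EC or mixed cells may be among them. Their shares therefore cannot tell free RNA from RNA of such cells. Of 28 cells with at least 3 UMIs of the fibroblast gene Dcn and no EC gene, at a median of 4367.5 UMIs, 10.7% showed Fmo2 and 7.14% Vwf.

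**Figure D2:**
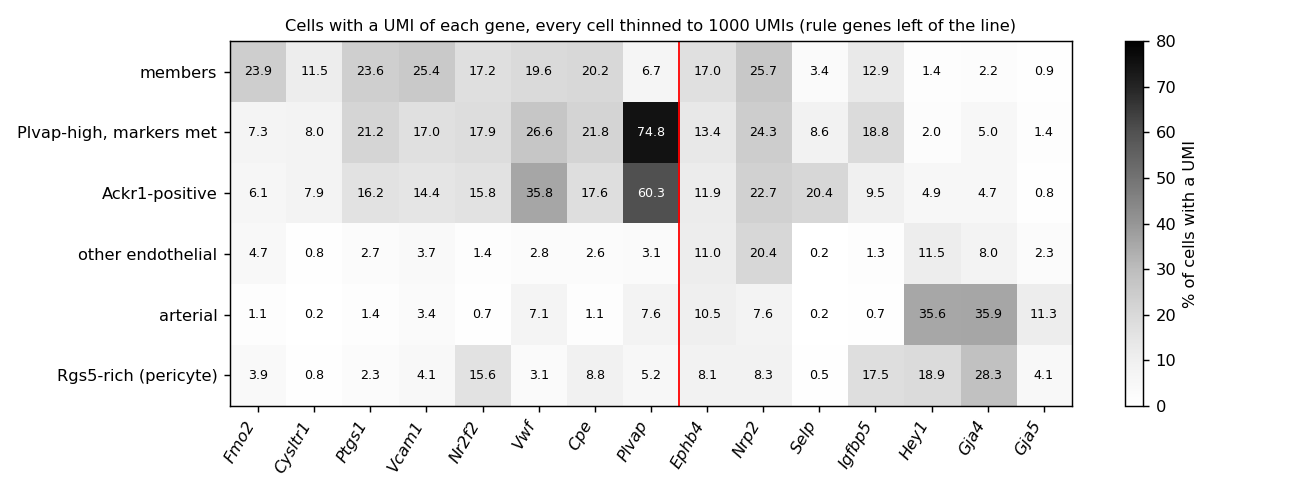
Shading and numbers give the percentage of cells with a UMI of each gene (columns) in 6 cell sets (rows), after every cell was thinned to 1000 UMIs. Genes left of the red line were used by the rule for members, the arterial and Rgs5-rich rows were themselves chosen on arterial genes (Hey1, Gja4 and Gja5 among them) and on Rgs5, and members show Fmo2 in 23.9% and Plvap in 6.68%.

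Members were not of one kind by their markers. Exactly 3 markers were seen in 764 members (48.5%), 4 in 408, 5 in 237, 6 in 128 and all 7 in 38, and the median depth ran from 4269 UMIs with 3 markers to 6940 with 7. The trio seen most often was Fmo2, Ptgs1 and Vcam1 in healthy members (30.6%) and Cpe, Ptgs1 and Vcam1 in MI members (22.7%). An arterial pattern, defined as at least 3 of 8 arterial genes, was also met by 118 members (7.49%) and by 18.6% of the other EC. Of these members 6 were healthy (1.83% of healthy members) and 112 were from MI mice (8.97%). The pattern counts detected genes at full depth, and MI members were deeper, as given above. The share in other EC was not split by group, and the part of depth in the difference was not tested.

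Cells just outside the limit of 3 markers were shallower and held more Hey1 RNA, whereas the sum of the vein list did not order the cells by their markers. In healthy mice 418 cells showed 2 markers, 158 showed 3 and 169 showed 4 or more, with median depths of 2681, 3023 and 3932 UMIs. Hey1, an arterial Notch target, stood at 27.8 ± 18.6, 11.2 ± 5.99 and 5.28 ± 7.39 CPM in these (mean ± SD, n = 4 mice). In MI mice 1389, 606 and 642 cells showed 2, 3 and 4 or more markers, and Hey1 stood at 81.5 ± 12.6, 27.0 ± 7.43 and 10.6 ± 2.83 CPM. Igfbp5, which encodes a binding protein of insulin-like growth factors, went the other way, at 46.1 ± 24.8, 56.1 ± 27.6 and 192 ± 113 CPM in healthy and 88.3 ± 31.2, 294 ± 133 and 562 ± 279 CPM in MI mice. The 18 genes of the vein list together stood at 4204 ± 512, 5199 ± 2254 and 4900 ± 305 CPM in healthy mice with 2, 3 and 4 or more markers, and at 4879 ± 517, 4721 ± 319 and 5513 ± 558 CPM in MI mice. Within that list the receptor Ephb4 did rise, at 135 ± 17.2, 145 ± 51.5 and 205 ± 34.2 CPM in healthy and 131 ± 16.7, 144 ± 22.0 and 185 ± 25.1 CPM in MI mice. The receptor Nrp2 did not, at 346 ± 35.1, 264 ± 58.6 and 324 ± 85.1 CPM in healthy and 332 ± 26.1, 343 ± 46.3 and 319 ± 31.7 CPM in MI mice.

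The limit on Plvap divided the marker-positive cells of MI hearts and few of those of healthy hearts. Of the cells with at least 3 markers and none of the other excluded genes, those with neither Plvap nor Ackr1, the atypical chemokine receptor of venules, were 91.9%, 86.9%, 94.3% and 95.6% in healthy mice and 38.3%, 50.3%, 25.4% and 53.5% in MI mice. Among cells without Ackr1, those with 2 UMIs of Plvap, just inside the limit, numbered 5 in healthy and 127 in MI mice, and those with 3 UMIs, just outside it, 1 and 51. Cells with 3 or more UMIs of Plvap and no Ackr1 were 3.05% ± 2.23 of marker-positive cells in healthy and 25.4% ± 5.28 in MI mice, and cells with Ackr1, at any Plvap count, 0.253% ± 0.505 and 12.8% ± 8.67 (SD, n = 4 each). MI 255 had the highest share with Ackr1 (25.4%), and these cells are by definition in none of the Plvap classes given here.

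Of the 7 markers, Fmo2 had the widest ratio between the group means within members. It stood at 522, 497, 540 and 407 CPM in Healthy 227, 228, 239 and 240 and at 148, 212, 158 and 283 CPM in MI 244, 250, 255 and 256, so the groups did not overlap. In the other EC it stood at 50.8 to 109 CPM in healthy and 19.8 to 41.4 CPM in MI mice. Vwf ranged from 294 to 460 CPM in healthy and from 139 to 349 CPM in MI members, and the groups overlapped, as did Nr2f2 at 168 to 286 and 123 to 214 CPM. Plvap, although limited to 2 UMIs per cell, stood at 4.66 to 25.0 CPM in healthy and 56.3 to 100.02 CPM in MI members. These values follow from cells chosen on the same genes and were not tested.

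Which genes outside the rule set members apart from other EC of the same mouse was asked with UMI sums per mouse, paired by mouse, in edgeR's quasi-likelihood test over 10375 genes. Genes that accompany the 7 markers differ here through the choice of members. At an adjusted p (Benjamini-Hochberg) under 0.05, 928 genes were higher in members (8.94% of those tested) and 863 lower (8.32%). Vein genes were mostly higher: 13 of the 17 tested rose and 2 fell, with a median log2 fold change of 1.05 beside 0.01 over all genes. Artery genes were lower in 14 of 16 and higher in none, with a median of -1.28. As a sum, the vein list stood at a median of 4773 CPM in members and 4234 CPM in other EC of healthy mice, and at 5069 and 5045 CPM in those of MI mice. Both lists were chosen with results of these cells known, and the 2 sets of cells differed in depth as given above.

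The selectins had the highest fold changes of the vein list. P-selectin (Selp) ranged from 11.6 to 81.1 CPM (median 27.0) over the members of the 8 mice and from 0 to 6.13 CPM (median 1.28) in the other EC, and was 3.94 ± 0.33 higher on the log2 scale (SE, adjusted p = 2.29e-08). E-selectin (Sele) ranged from 4.66 to 28.3 CPM against 0 to 2.09 CPM (3.56 ± 0.27, adjusted p = 6.15e-09). Icam1, an adhesion molecule for leukocytes, stood at 184 to 268 CPM against 78.3 to 120 CPM (1.14 ± 0.09). For each of these genes the lowest members lay above the highest other EC. They were the 3 genes of the leukocyte adhesion list higher in members, while Jam3, Mcam, Esam, Cd34 and F11r were lower, by -0.89, -0.55, -0.41, -0.40 and -0.23, and the median over the 12 tested was -0.01.

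Of the receptors in the vein list, Ephb4, Nrp2, Aplnr, Tek, Il1r1 and Il6st were higher in members and the endothelin receptor Ednrb lower. Ephb4, the ephrin receptor of veins, stood at 138 to 188 CPM in members and 99.0 to 123 CPM in other EC, without overlap (log2 fold change 0.60 ± 0.06, adjusted p = 1.11e-07). Nrp2, a co-receptor for VEGF-C, overlapped at 209 to 361 and 234 to 291 CPM (0.25 ± 0.06, adjusted p = 0.0043), and its difference was -0.0074 after thinning to 1000 UMIs. The apelin receptor Aplnr and the angiopoietin receptor Tek were higher by 0.57 and 0.47. The interleukin-1 receptor Il1r1 and the gp130 receptor chain Il6st were higher by 1.05 and 1.28. Ednrb and Tm4sf1 were the vein-list genes lower in members, by log2 fold changes of -0.85 and -0.73.

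**Figure D3:**
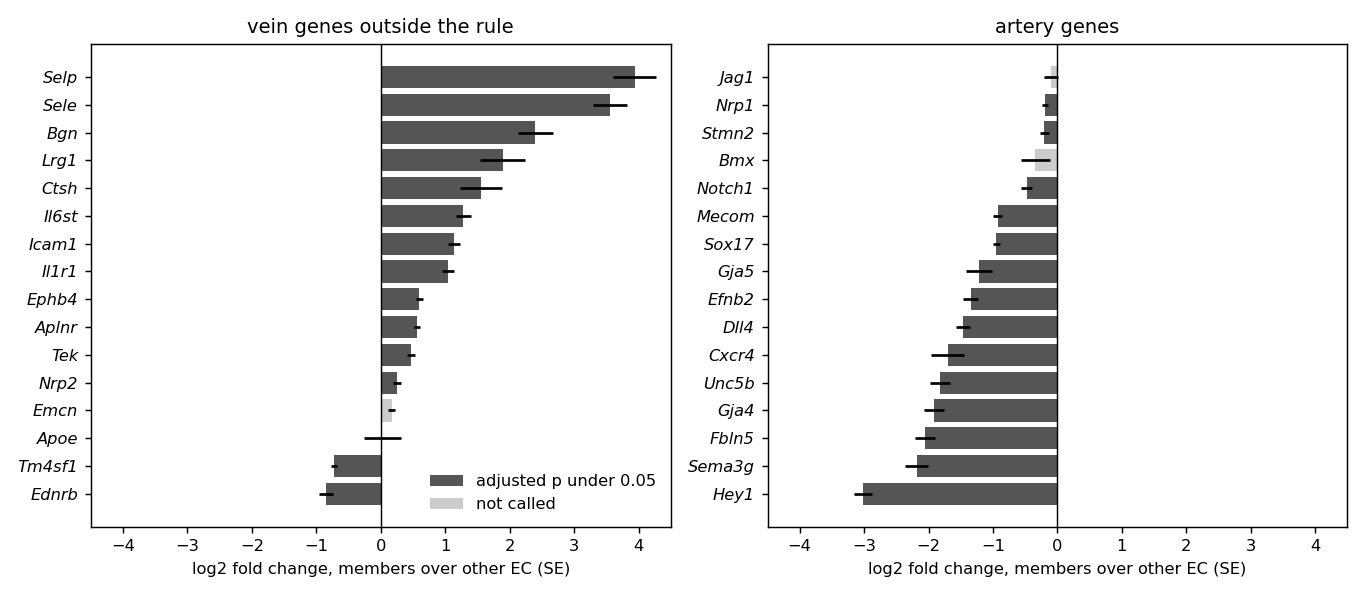
Bars give the log2 fold change of members over other EC (edgeR, 8 mice, error bars SE) for 16 of the 17 vein-list genes tested and the 16 artery-list genes tested, dark where the adjusted p is under 0.05. Selp reaches 3.94 on the left and Hey1 -3.02 on the right.

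Arterial genes were low in members. Hey1 ranged from 3.01 to 22.4 CPM against 96.2 to 222 CPM in other EC (-3.02 ± 0.14, adjusted p = 1.1e-11). The Notch ligand Dll4 stood at 17.4 to 75.8 CPM against 143 to 203 CPM and the ephrin ligand Efnb2 at 16.3 to 42.6 against 75.6 to 111 CPM, both without overlap. The netrin receptor Unc5b, the semaphorin Sema3g, the transcription factor Sox17 and the chemokine receptor Cxcr4 were lower by log2 fold changes of -1.82, -2.19, -0.95 and -1.70. The connexins Gja4 and Gja5 were lower by -1.91 and -1.21 with overlapping ranges.

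Among called genes of at least 20 CPM over both cell sets, Igfbp5 had the highest fold change. It stood at 28.0, 161, 181 and 154 CPM in the members of the healthy mice and 334, 268, 735 and 427 CPM in those of the MI mice, against 6.19 to 74.1 CPM in other EC (3.48 ± 0.13, adjusted p = 1.17e-12). Igfbp5 was not particular to members. In MI mice it stood at 441 ± 206 CPM in members and 506 ± 220 CPM in marker-positive cells with 3 or more UMIs of Plvap and no Ackr1. In Ackr1-positive cells of MI mice it stood at 287 ± 209 CPM (mean ± SD, n = 4). Serpina1e, of the α1-antitrypsin family, ranged from 5.46 to 136 CPM against 0.827 to 6.21 CPM (3.29 ± 0.33, adjusted p = 2.6e-07). It has near-identical copies beside it on chromosome 12, so reads could be split between them and the identity of the copy is uncertain. Thinned to 1000 UMIs, it was seen in 2.04% of members and 0.229% of other EC.

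Lbp, the carrier of bacterial lipopolysaccharide, stood at 24.2 to 47.6 CPM in members and 0.955 to 5.71 CPM in other EC. Prss23, a serine protease, stood at 166 to 345 against 7.14 to 96.4 CPM, the proteoglycan biglycan (Bgn) at 200 to 322 against 7.47 to 107 CPM, and elastin (Eln) at 139 to 408 against 16.5 to 71.2 CPM. Ceruloplasmin (Cp), insulin-like growth factor 1 (Igf1), the protease inhibitor Spint2 and the disulphide isomerase Pdia5 were higher by 2.35, 2.304, 2.26 and 2.39 on the log2 scale. These 10 genes had the highest fold changes among called genes of at least 20 CPM that were higher in all 8 mice. The 10 lowest by the same rule were Nebl, Alpl, Hey1, Alox12, Cox4i2, Sema3g, Btnl9, Fbln5, Lrrc3b and Gja4, from -3.30 (Nebl) to -1.91 (Gja4). Alpl, alkaline phosphatase, ranged from 2.33 to 18.1 CPM in members and from 39.6 to 184 CPM in other EC.

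Capillary genes split. Of 15 tested, 4 were higher in members and 7 lower, with a median of -0.12. The fatty acid-binding protein Fabp5 and the water channel Aqp1 were higher by 0.62 and 0.70, and the carbonic anhydrase Car4, the glycerol channel Aqp7, Btnl9 and Cd300lg lower by -1.48, -1.25, -2.11 and -0.81. Of 22 prostanoid and leukotriene genes, 8 passed the filter on low counts, of which the prostaglandin transporter Slco2a1 and the leukotriene C4 synthase Ltc4s were higher (2.21 ± 0.15 and 1.31 ± 0.14) and the thromboxane receptor Tbxa2r and the prostaglandin receptor Ptger4 lower (-1.14 ± 0.13 and -1.13 ± 0.17). Slco2a1 stood at 21.0 to 72.1 CPM against 4.62 to 15.9 CPM without overlap. Fmo1, a second flavin monooxygenase, stood at 207 to 397 against 115 to 194 CPM (0.90 ± 0.07, adjusted p = 6.47e-09), without overlap.

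Haemostasis genes were higher in 8 of 13 and lower in 1, and 6 of the 8 held when each mouse was left out in turn. The complement inhibitor Cd59a, the ATP-degrading enzyme Entpd1 and the protein C receptor Procr were higher by 0.96, 1.21 and 0.84, and the plasminogen activator Plat was lower by -0.51. Of 12 chemokine genes, 4 were higher, such as Cxcl16 (0.98), and 2 lower, such as Cxcl12 (-1.28). The CGRP and adrenomedullin receptor Calcrl was higher by 1.60 ± 0.08 and Vegfc by 0.88 ± 0.14. Bone morphogenetic protein 4 (Bmp4) was higher by 1.48 and the BMP inhibitor Smad6 lower by -1.41, while of the 16 genes of that list 4 were higher and 8 lower.

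RNA of other cell types in members was uneven between mice. The 9 platelet and erythroid genes had the highest sums, 165 to 14794 CPM in healthy and 93.0 to 5578 CPM in MI members, beside 2500 to 6654 and 2146 to 10235 CPM in other EC. Of 8 tested, 5 were lower in members than in other EC and 1 higher, and 2 of the 5 held when each mouse was left out in turn. The 15 blood cell genes summed to 23.3 to 2782 CPM in healthy and 260 to 1103 CPM in MI members, with Cd3e at 0, and the 10 fibroblast genes to 7.15 to 1211 and 39.5 to 560 CPM. The 10 pericyte and smooth muscle genes summed to 3.01 to 41.8 and 22.7 to 240 CPM and the 11 cardiomyocyte genes to 37.3 to 73.2 and 45.8 to 84.03 CPM. The 6 lymphatic genes summed to 14.3 to 115 CPM in healthy and 33.4 to 55.0 CPM in MI members, and to 45.2 to 50.6 and 39.3 to 49.6 CPM in other EC. The highest blood value was in Healthy 240, where the complement gene C1qa stood at 521 CPM beside 0 to 4.66 CPM in the other healthy mice, and the highest fibroblast value in Healthy 227, with Gsn at 729 CPM. Haemoglobin Hbb-bs was 5858 CPM in Healthy 240 and 31.4 to 2526 CPM in the other 7 mice, and it was lower in members than in other EC (-2.54 ± 0.65, adjusted p = 0.00835). Of 17 immediate early and dissociation genes 6 were higher in members than in other EC and 1 lower (median 0.09), and 3 were lower and none higher in MI than in healthy members (median -0.41). Of these calls 4 of the 6 and none of the 3 held when each mouse was left out in turn, and without the limit on Plvap 7 were lower after MI (median -0.53). The part of this RNA in the results was not tested, and the counts of calls over all genes are given without each mouse below or in the closing section.

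Next, members of MI and healthy mice were compared over 8 sums (4 against 4), each of 58 to 406 cells and 279838 to 2380600 UMIs. In edgeR's quasi-likelihood test over 7999 genes, 280 were higher after MI (3.5% of those tested) and 421 lower (5.26%). Basement membrane and matrix genes were higher in 7 of 19 and lower in 1, with a median log2 fold change of 0.62 beside -0.01 over all genes. Capillary genes were lower in 7 of 15 and higher in none (median -0.55), and genes of the TGF-beta and BMP pathway lower in 6 of 15 and higher in 1 (median -0.42). Of these calls, 6 of the 7 higher matrix genes, 2 of the 7 lower capillary genes and 2 of the 6 lower TGF-beta and BMP genes held when each mouse was left out in turn. The matrix counts also depend on the limit on Plvap, without which 11 of 19 were higher and 1 lower (median 1.01), while capillary genes were lower in 9 of 15 (median -0.74) and TGF-beta and BMP genes in 6 of 15 (median -0.30). Of 17 vein genes edgeR called none (median -0.10), while 5 had an unadjusted p under 0.05 and DESeq2 called 1. This count too depends on that limit, which takes marker-positive cells mostly from MI mice, since without it Selp, Bgn and Lrg1 were called higher after MI and none lower (median -0.12), and the same 3 were called with Ackr1-positive cells admitted as well (median -0.09). Of 13 antigen presentation genes edgeR called none (median 0.25), with 1 at an unadjusted p under 0.05 and none called by DESeq2, and the median was 0.04 over 14 genes without the limit on Plvap.

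Of all genes tested, Sparc had the lowest adjusted p. Sparc, a collagen-binding matricellular protein, stood at 1304, 1179, 1091 and 1290 CPM in Healthy 227, 228, 239 and 240 and at 4285, 4181, 4315 and 2760 CPM in MI 244, 250, 255 and 256 (1.57 ± 0.14, adjusted p = 0.000148). The basement membrane collagen Col4a1 stood at 342, 447, 206 and 268 CPM in the healthy and 777, 770, 759 and 720 CPM in the MI mice (1.16 ± 0.19, adjusted p = 0.00302). Neither gene overlapped between the groups. Col15a1, the laminin Lamb1 and Vwa1 were higher by 1.58, 1.25 and 0.62, also without overlap.

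The gene with the highest fold change among those of at least 20 CPM was Pgf, placental growth factor. It stood at 6.99, 0, 0 and 0 CPM in the healthy and 35.1, 33.2, 38.4 and 49.1 CPM in the MI mice, where the healthy value rests on 3 UMIs and the pooled rate was 16.8 times higher (exact 95% counting interval 5.68 to 81.8, adjusted p of the edgeR test 0.00181). Col18a1, the collagen that holds endostatin, stood at 0, 10.7, 3.49 and 12.1 CPM against 80.01, 50.4, 112 and 82.5 CPM (3.61 ± 0.50, adjusted p = 0.00139). The connexin Gja4 stood at 2.33, 3.57, 10.46 and 3.01 CPM against 55.3, 18.9, 60.01 and 53.5 CPM (3.21 ± 0.66, adjusted p = 0.0105). A UMI of Gja4 was seen in 6 healthy (1.83%) and 114 MI members (9.13%), with up to 27 UMIs in 1 MI cell, and the share of members that met the arterial pattern, of which Gja4 is a gene, also differed between the groups as given above. Its part in this result was not tested. Il6 rested on 1 healthy and 155 MI UMIs, a pooled rate 28.1 times higher with an interval of 4.98 to 1119.

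Among the 10 genes with the highest fold changes were also Dbn1, Adamts4, Fam167b, Ttc9, Mcm5 and Mest, the last at 2.24. Mest ranged from 34.9 to 69.3 CPM in healthy and 136 to 322 CPM in MI members, and the metalloprotease Adamts4 from 3.01 to 9.32 and 32.7 to 52.4 CPM. The call of Mcm5 was lost without Healthy 227, 228 or 239 (adjusted p up to 0.108).

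Among the 13 S and G2M genes tested, which exclude the Mki67 and Top2a of the rule, 5 were higher and none lower (median 1.14), and 3 of the 5 held when each mouse was left out in turn. Without the limit on Plvap 8 of 16 were higher and none lower (median 1.06). The replication helicase subunit Mcm6 stood at 28.0, 32.2, 27.9 and 30.1 CPM in healthy and 87.5, 67.6, 87.0 and 52.8 CPM in MI members (1.22 ± 0.23, adjusted p = 0.00711). Stmn1, a regulator of microtubules, and Cks2, a subunit of cell-cycle kinases, were higher by 1.22 and 2.21. Of 18 glycolysis and hypoxia genes 4 were higher and none lower, with Pkm at 243 to 321 against 431 to 676 CPM (0.81 ± 0.17), and 1 of the 4 held without each mouse. Of 18 interferon genes 3 were higher and 1 lower, with the regulator Irf7 at 109, 46.5, 87.2 and 93.4 CPM against 318, 381, 528 and 169 CPM (1.92 ± 0.30, adjusted p = 0.00299) and Ifi203 lower by -0.78, and 1 of the 3 higher calls held without each mouse.

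Of 12 leukocyte adhesion genes 3 were higher, 1 was lower and 8 were not called. Mcam (CD146) stood at 46.6, 53.6, 24.4 and 54.2 CPM in healthy and 140, 131, 147 and 140 CPM in MI members (1.52 ± 0.18, adjusted p = 0.00115) and Cd34 at 422 to 526 against 761 to 1085 CPM (0.94 ± 0.14), both without overlap. Jam2, a junctional adhesion molecule, was lower by -0.66. Of 10 VEGF and Tie genes 2 were higher, Pgf and Apln, and 2 lower, Vegfc and Flt1 (median -0.04). When each mouse was left out in turn, 2 higher calls and 1 lower call held. Apln was higher by 1.21 ± 0.26. Vegfc, the ligand for lymphatic and venous growth, was lower at 189 to 335 against 123 to 140 CPM (-0.88 ± 0.17, adjusted p = 0.00775).

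**Figure D4:**
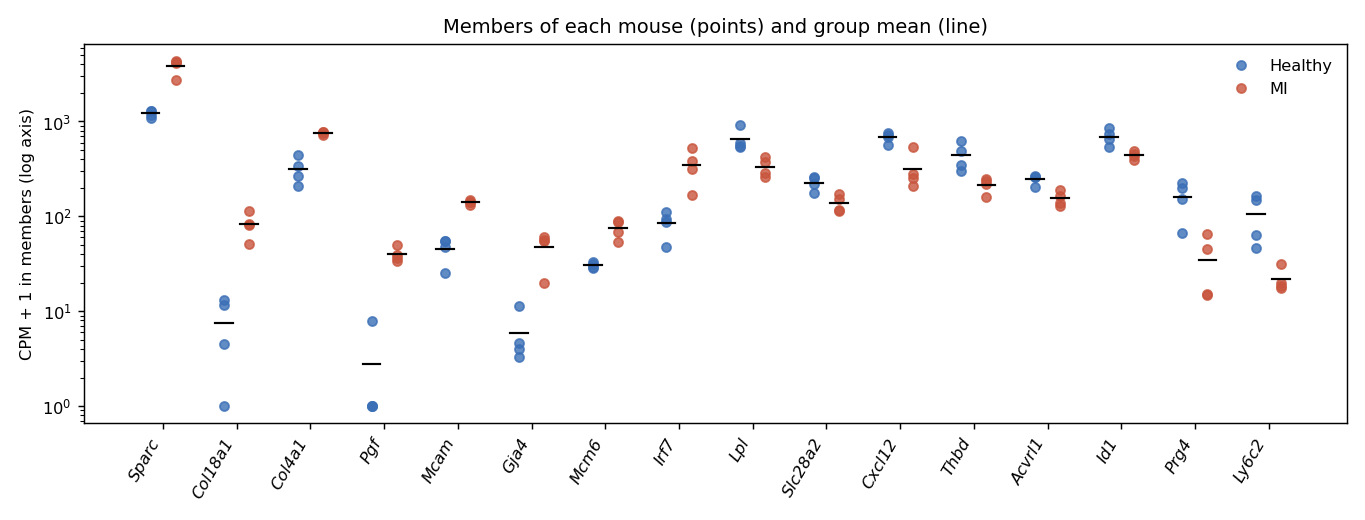
Points give CPM + 1 (log axis) of 16 genes in the members of each Healthy (blue) and MI (red) mouse, and lines the group means. For each gene shown the 4 MI mice lie on one side of the 4 healthy mice, as for Sparc at 2760 to 4315 against 1091 to 1304 CPM.

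Genes lower after MI included regulators of lipid uptake, clotting and BMP signals. Lipoprotein lipase (Lpl) stood at 927, 532, 586 and 554 CPM in healthy and 283, 418, 261 and 376 CPM in MI members (-1.06 ± 0.20, adjusted p = 0.00671), and the nucleoside transporter Slc28a2 at 175 to 256 against 113 to 170 CPM (-0.81 ± 0.17). Thrombomodulin (Thbd), a cofactor of the anticoagulant protein C, stood at 349, 300, 621 and 485 CPM against 236, 247, 159 and 217 CPM (-1.13 ± 0.21, adjusted p = 0.0069). The BMP receptor Acvrl1 and the BMP target Id1 were lower by -0.79 ± 0.15 and -0.76 ± 0.16, and the chemokine Cxcl12 by -1.20 ± 0.25. None of these 6 genes overlapped between the groups, whereas Timp4 did at 347 to 635 against 117 to 352 CPM (-1.40) and its call was lost without Healthy 227 or 239 (adjusted p up to 0.0631).

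The 10 lowest fold changes by the same rule fell on Gm10126, Gm5239, Ly6c2, Prg4, H2-Q1, Gm17541, Gm15013, Gm10269, Gm5093 and Edn1, from -2.63 (Gm10126) to -2.05 (Edn1). Of the 6 predicted genes here 5 are annotated as processed pseudogenes, and these, Ly6c2 and H2-Q1 have close relatives that can share reads, so their identity is uncertain. Prg4, lubricin, stood at 66.3 to 222 against 13.8 to 64.0 CPM (-2.35 ± 0.44). The calls of Edn1, endothelin-1, and H2-Q1 were lost without some mice, Edn1 without Healthy 227, 228 or 239 or MI 244, 250 or 255 (adjusted p up to 0.138) and H2-Q1 without Healthy 227 or 228 (up to 0.0662). The numbers of calls ran from 128 higher and 208 lower without Healthy 227 to 441 and 634 without MI 256, and were 147 and 215 without Healthy 228, 133 and 225 without MI 244 and 152 and 247 without MI 255. With the limit on Plvap lifted 462 were higher and 627 lower, and with at least 4 markers 139 and 261. Without the members above the 95th percentile of UMIs of their mouse 245 were higher and 354 lower.

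Whether members changed after MI as other EC did was tested by the interaction of cell set and group over 11129 genes. The MI effect was larger (more positive) in members for 26 genes (0.234%) and smaller for 70 (0.629%). In the vein list it was smaller for 5 of 18 and larger for none (median -0.20 beside 0.04 over all genes). For artery genes it was larger for 1 of 16, Gja4, and smaller for none (median 0.87), while 8 had an unadjusted p under 0.05. In the matrix list it was larger for 5 of 22 and smaller for none (median -0.02). Of these calls, 3 of the 5 in the vein list, 2 of the 5 in the matrix list and 0 in the artery list held when each mouse was left out in turn. The limits on Plvap and Ackr1 remove marker-positive cells mostly from MI mice and so bear on these counts. Without the limit on Plvap in both cell sets, which was tried after seeing the data, the effect was larger for 46 and smaller for 119 of all genes, smaller for 6 and larger for 1 of the vein list, and larger for 6 and smaller for 1 of the matrix list. For artery genes it was then larger for 5 of 16 and smaller for none (median 0.93). With Ackr1-positive cells admitted as well, it was smaller for 5 and larger for none of the vein list.

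Lrg1, Ctsh, Prss23 and Bgn were among the 5 lowest interactions of called genes of at least 20 CPM whose ratio of members to other EC did not overlap between the groups, and their healthy members already lay far above healthy other EC. Lrg1, a secreted glycoprotein of TGF-beta signalling, stood at 55.2 ± 32.1 CPM in healthy and 139 ± 54.0 CPM in MI members, and at 0.830 ± 0.368 and 49.4 ± 18.8 CPM in other EC (mean ± SD, n = 4, interaction -4.56 ± 0.62 on the log2 scale). The lysosomal protease Ctsh stood at 63.4 ± 24.4 and 53.3 ± 10.2 CPM in members, where the groups overlapped, and at 3.09 ± 0.970 and 25.9 ± 10.2 CPM in other EC (-3.34 ± 0.36). Bgn stood at 217 ± 17.2 and 265 ± 46.3 CPM in members and 12.2 ± 3.99 and 78.4 ± 20.5 CPM in other EC (-2.43 ± 0.22). For each of these genes the other EC of every MI mouse lay above those of every healthy mouse.

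The protease gene Prss23 stood at 249 ± 68.1 and 204 ± 38.4 CPM in members and at 12.2 ± 3.88 and 60.3 ± 27.0 CPM in other EC (-2.57 ± 0.31). These 4 calls held without each mouse in turn, after thinning to 1000 UMIs and without the limit on Plvap, where the interactions of Lrg1, Ctsh, Prss23 and Bgn were -4.20, -3.37, -2.97 and -2.27. Of the 15 genes named for the interaction, 9 lost their call after thinning. The part of free RNA in the levels of other EC was not tested. Bmp4, Vegfc and Ltc4s, each higher in members than in other EC, also had lower interactions, of -1.16, -0.96 and -1.08.

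**Figure D5:**
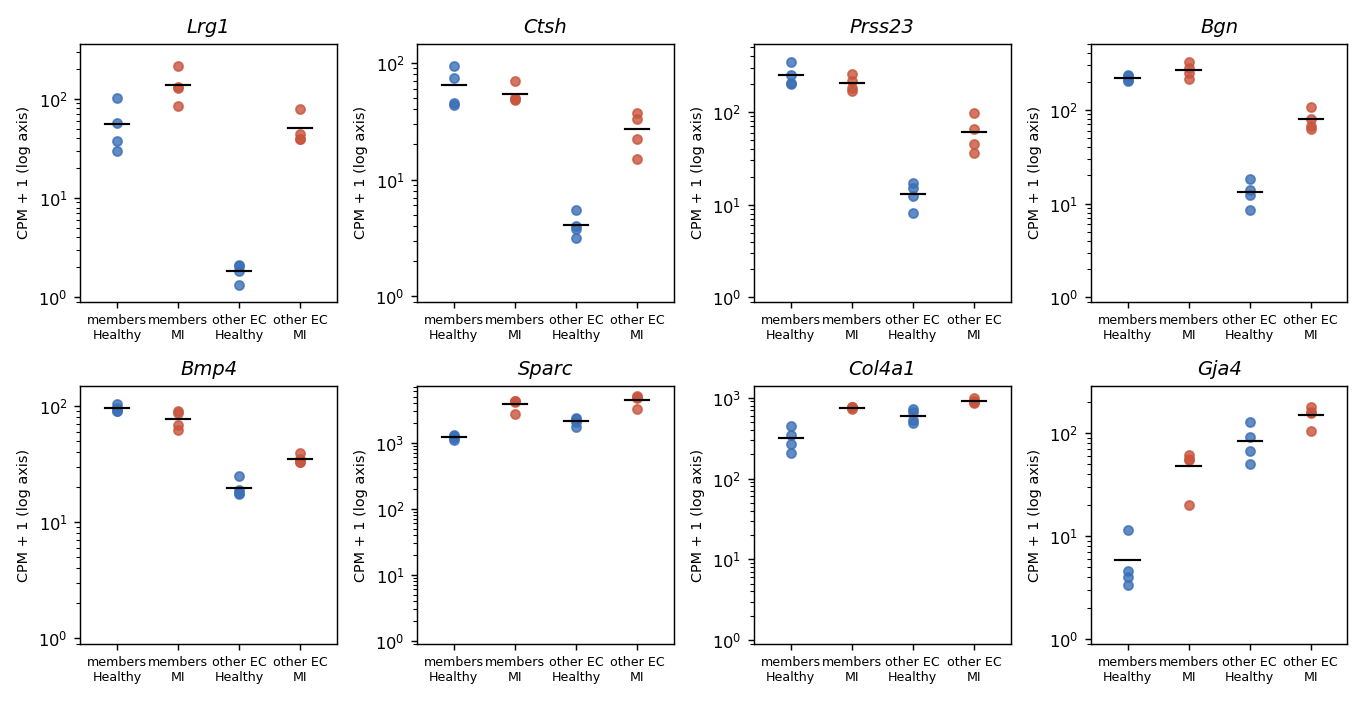
Points give CPM + 1 (log axis) per mouse and lines the mean for 8 genes in members and other EC of Healthy (blue) and MI (red) mice. Lrg1, Ctsh, Prss23, Bgn and Bmp4 are low in the other EC of healthy mice and high in members of both groups, whereas Sparc, Col4a1 and Gja4 are lowest in healthy members.

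The matrix genes Sparc and Col4a1 were lowest in healthy members. Sparc stood at 1216 ± 100 and 3885 ± 753 CPM in healthy and MI members and at 2109 ± 275 and 4525 ± 880 CPM in other EC (interaction 0.58 ± 0.08). Col4a1 stood at 316 ± 104 and 756 ± 25.3 CPM in members and 602 ± 111 and 916 ± 51.6 CPM in other EC (0.70 ± 0.11). Both calls held without each mouse in turn. The 5 highest interactions by the rule were those of Gja4 (2.40 ± 0.49), Rapgef4 (1.55 ± 0.31), Ap1m1 (1.08 ± 0.25), Myo10 (1.01 ± 0.17) and Mcam (0.97 ± 0.20), and each of these calls was lost without at least 1 mouse: Myo10 without Healthy 227 (adjusted p = 0.051), Rapgef4 without Healthy 227 or 240 (up to 0.112), Gja4 without Healthy 227 or 228 (up to 0.0656), Mcam without Healthy 239 or 240 or MI 255 (up to 0.0811) and Ap1m1 without Healthy 227, 228 or 240 or MI 244, 250 or 255 (up to 0.136).

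Myo10 and Rapgef4 were lower in the other EC of MI than of healthy mice, whereas their members overlapped between the groups. Myo10, a motor of filopodia, stood at 51.2 ± 17.9 and 58.3 ± 8.36 CPM in members and 234 ± 35.3 and 135 ± 21.8 CPM in other EC. Of 13 blood cell genes 5 had a lower interaction, none of them kept without each mouse, and that of C1qa turned from -3.13 to 2.37 without Healthy 240. The counts of larger and smaller effects were 7 and 29 without Healthy 227, 23 and 57 without Healthy 228, 16 and 43 without Healthy 240, 8 and 33 without MI 244, 15 and 53 without MI 250, 8 and 31 without MI 255 and 26 and 104 without MI 256.

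Last, members were compared with the Plvap-high cells that met the same marker rule in the 4 MI mice. These numbered 126, 140, 218 and 66 in MI 244, 250, 255 and 256 beside 260, 406, 319 and 263 members, and their median depth was 6921 ± 475 UMIs (SD, n = 4 mice) against 5125 ± 734. The 2 sets were split by their Plvap count, so genes that rise or fall with Plvap differ here through that split. Of 9273 genes 673 were higher in members (7.26%) and 732 lower (7.89%) in edgeR's quasi-likelihood test paired by mouse. Capillary genes were higher in members in 14 of 15 and lower in none (median 0.96 beside -0.00 over all genes), interferon genes in 15 of 18 and none (median 0.57), and antigen presentation genes in 11 of 13 and none (median 0.38). Matrix genes were lower in members in 11 of 19 and higher in 1 (median -0.40), and vein genes lower in 13 of 17 and higher in 1 (median -0.65). Immediate early and dissociation genes were higher in members in 8 of 17, Hspa1a (0.96), Hspa1b (0.95), Dusp1 (0.53) and Jun (0.35) among them, and lower in 1 (median 0.19). Platelet and erythroid genes were higher in 5 of 6 and lower in 1 (median 2.14) in edgeR while DESeq2 called none of the 6, and the part of either list in the other differences was not tested.

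Lipid-handling genes of capillaries were among those higher in members. Fabp4 stood at 17131 to 20208 CPM in members and 8982 to 11087 CPM in Plvap-high cells (0.88 ± 0.03, adjusted p = 2.27e-14), and Lpl at 261 to 418 against 64.2 to 103 CPM (1.98 ± 0.08), both without overlap. The fatty acid transporter Cd36 and the lipase anchor Gpihbp1 were higher by 0.72 and 0.68. Timp4, an inhibitor of matrix metalloproteases, stood at 117 to 352 against 17.1 to 54.8 CPM (2.69 ± 0.15), also without overlap. Fmo1 was higher by 1.37 ± 0.11, at 207 to 273 against 56.2 to 147 CPM. The interferon genes Iigp1, Gbp2, Ifit1 and Isg15 were higher by 0.76, 0.76, 0.68 and 0.56, and B2m, H2-K1 and Psmb8 of antigen presentation by 0.42, 0.34 and 0.45, each in all 4 mice although the ranges overlapped between mice.

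Lrg1 was 82.9 to 213 CPM in members and 1014 to 1262 CPM in Plvap-high cells (-3.11 ± 0.11, adjusted p = 2.27e-14). Il6 was 12.6 to 28.8 against 69.7 to 90.6 CPM (-1.92 ± 0.16), Bgn 214 to 322 against 611 to 779 CPM (-1.41 ± 0.07) and Procr 18.4 to 28.1 against 58.1 to 92.7 CPM (-1.76 ± 0.14). Col18a1, Col15a1, Col4a1 and Sparc were lower in members by -1.74, -0.86, -0.72 and -0.40, and Selp and Sele by -1.28 and -1.43. Slco2a1 and Entpd1 were lower by -1.45 and -0.99. Nrp2 was the vein-list gene higher in members (0.31 ± 0.07), and the growth factor Csf1 was higher by 1.22 ± 0.14.

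By the same rule the 10 genes highest in members were Hba-a1, Timp4, Mycn, Lpl, Slc28a2, Car4, Stxbp6, Kcna5, Rtn1 and Adora2a, from 3.11 (Hba-a1) to 1.69 (Adora2a). Haemoglobin Hba-a1 ranged from 9.73 to 1330 CPM over the members of the 4 mice and has a near-identical copy, and it was not called by DESeq2. The transcription factor Mycn stood at 68.4 to 102 against 10.53 to 19.7 CPM and the potassium channel Kcna5 at 106 to 231 against 25.3 to 70.4 CPM. The 10 lowest included Lrg1, Csf2rb, Tgfbi, Ms4a6d, Tmem252, Igfbp4, Il6, Oaf and Clu, from -3.11 (Lrg1) to -1.88 (Clu). Without MI 255 429 genes were higher in members and 442 lower, and DESeq2 called 290 and 292.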

How the data were processed

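The deposited table held UMI counts per gene and cell for 16791 genes and 31028 cells of 8 mice, with 1 library each. Per the labels and the methods of the study, the authors sequenced 10X 3′ v2 libraries, aligned reads to mm10 and made counts with Cell Ranger, and used Seurat 2.3 in R 3.5.2. Cells under 400 genes or above 20% mitochondrial UMIs had been removed by the authors. The lowest number of genes in a deposited cell was 403.

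Members and gene lists were chosen with earlier results of these data known. Counts were summed per mouse and cell set, and sums were tested with edgeR 4.0.16 (TMM factors, low-count filter, quasi-likelihood, R 4.3.3) with Benjamini-Hochberg adjustment at 0.05, between 4 Healthy and 4 MI mice or with mouse as a block for sets within mice. The 18 genes of the rule were left out of the calls. Named genes were the 10 highest and 10 lowest fold changes (5 and 5 for the interaction) among called genes of at least 20 CPM in the same direction in every mouse or, between groups, without overlap. Some genes that this rule or the lists name are not reported here. Examples from lists were taken from calls that held without each mouse in turn, except Timp4 after MI and C1qa in the interaction, which were named after their values were seen. On simulated counts for the MI comparison (7793 genes), the changed genes were drawn from those with a mean of at least 20 CPM. Of these, 67% of genes changed by a log2 of 1 and 100% of those changed by 2 were called. The simulation does not cover changes in lower genes. P-values rest on separate mice. Intervals cover counting error only. DESeq2 1.42.0, other factors, filters, marker rules and thinning were the alternatives. Member sums held 279838 to 2380600 UMIs, so low genes of healthy mice were the least precise.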

Additional observations from a re-analysis of the deposited data

Results flagged for a closer look

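In members, 19 of 106 groups of 4 mice held 1 mouse that stood apart from the other 3, while chance flags about 1 in 20. In healthy members these were Vwf at 460 CPM, Acvrl1 at 204, Adamts4 at 9.32, Gja4 at 10.46, Gm17541 at 214, Il6 at 2.33, Jam2 at 422, Lamb1 at 53.6, Lpl at 927, Pgf at 6.99 and Vegfc at 335 CPM. The values of Il6 and Pgf rest on 1 and 3 UMIs with the other 3 mice at 0, so the rate given for chance does not apply to them. In MI members these were Adamts4 at 52.4 CPM, Cd34 at 761, Dbn1 at 25.3, Edn1 at 86.3, Gja4 at 18.9, H2-Q1 at 11.5, Ly6c2 at 30.5 and Sparc at 2760 CPM.

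The MI effect differed between members and other EC by the interaction test of edgeR for these 9 genes, taken by fold change, among others given in the report. It was lower in members for Lrg1 (-4.56 on the log2 scale), Ctsh (-3.34), Prss23 (-2.57) and Bgn (-2.43). It was higher in members for Mcam (0.97), Myo10 (1.01), Ap1m1 (1.08), Rapgef4 (1.55) and Gja4 (2.40).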

How the results depend on the processing

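No paired analysis was possible because the Healthy and MI mice share no replicate number, which holds for MI against healthy members, whereas the comparisons of cell sets within mice had mouse as a block. For MI against healthy members, with 280 genes higher and 421 lower, no filter gave 441 higher, thinning to 1000 UMIs 15 and 25 (fewer genes tested), at least 4 markers 139 and 261, no limit on Plvap 462 higher and no limit on Plvap or Ackr1, chosen after seeing the data, 510 and 689. Leaving out a mouse gave 128 to 441 higher and 208 to 634 lower. For members against other EC, thinning gave 141 higher and 308 lower, and leaving out a mouse 705 to 888 and 724 to 900. For the interaction, DESeq2 gave 17 higher, no filter 70 and 205, thinning 13 lower, at least 4 markers 43 lower, the 6 markers without Vcam1 44 lower, and, chosen after seeing the data, no limit on Plvap 46 and 119 and no limit on Plvap or Ackr1 45 and 123, and leaving out a mouse 7 to 26 and 29 to 104. Against Plvap-high cells DESeq2 gave 290 and 292, at least 4 markers 379 and 380, and leaving out a mouse 429 to 650 and 442 to 722. The thinned fit of this comparison was not run because some sums held fewer than 10 cells. The MI minus healthy share of members, 4.08 percentage points, was 0.757 when thinned (with the limits on Plvap and the excluded genes also read on thinned counts), 2.09 with 4 markers, 2.87 without Vcam1, 7.15 with no limit on Plvap, 1.82 with 0 Plvap UMIs and 3.81 to 4.56 without a mouse. The difference in median UMIs, 1481, ran from 1180 to 1778 without a mouse, where 3 against 4 mice cannot go below an exact p of 0.0571.

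Of the genes checked under each alternative that could be tested when thinned, 6 of 10 lost their call in MI against healthy members. Calls were lost for 9 of 54 in members against other EC and for 9 of 15 in the interaction. Besides these, Nrp2 turned to -0.0074 in members against other EC when thinned. The interaction of C1qa, -3.13, turned to 0.39 with DESeq2, 2.37 without Healthy 240, 3.96 with 4 markers, 3.25 without Vcam1 and 1.04 without the cells of highest UMIs. Leaving out a mouse gave -4.36 to 2.37, and 2.37 was the value that changed sign. The cause of the other changes was not tested. Low depth in healthy mice limits genes of few UMIs.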
